A study of Mus musculus with 12 samples.

Results

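Krt19, Krt7, Epcam, Sox9, Spp1 and Cftr are 6 genes used to recognise cholangiocytes, the epithelial cells that line the bile ducts. Their promoters were followed in an ATAC-seq study of whole mouse liver. They are 6 of the 25124 gene symbols in the promoter table. The symbols occupy 11 of its 43511 promoter rows, and each gene is described by the row with the highest mean level over all libraries. The choice used no difference between groups.

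Cholangiocytes make up a small share of liver cells, and hepatocytes are the large majority. They arise from the same embryonic precursor as hepatocytes under Notch signalling, and they modify bile by secreting chloride, bicarbonate and water. Krt19 and Krt7 encode intermediate filament keratins of duct epithelium. Epcam encodes an adhesion molecule of the epithelial cell surface, and Cftr encodes the apical chloride channel that opens after secretin stimulation. Spp1 encodes osteopontin, a secreted matrix protein, and Sox9 encodes a transcription factor needed for timely bile duct formation. In bulk tissue, fewer cells of a type and less open chromatin per cell cannot be told apart.

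In ATAC-seq a transposase cuts DNA where chromatin is accessible, so more counts at a promoter mean that it was more open. PCN mice received 100 mg/kg of pregnenolone 16α-carbonitrile, a ligand of the rodent nuclear receptor PXR. Atorvastatin mice received 10 mg/kg of this statin, an inhibitor of cholesterol synthesis. Control mice received distilled water. All mice were C57BL/6N wild types, male, 19 to 20 weeks old and on standard chow. They were gavaged on 4 days and then fasted for 12 h. Each group has 4 libraries. The labels give 9 to 10 mice per group, without saying whether a library is a single mouse, so p-values measure the spread between libraries. A pravastatin group was not analysed here.

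RefSeq promoter windows, 250 bases before to 50 bases after the annotated start, were matched for Krt7, Epcam, Spp1 and Cftr. They are shown because the 4 differ widely in CG content, a sequence property that often goes with constitutively open promoters. Krt19 and Sox9 are named only. All windows are on the plus strand of GRCm38.p6, 5′ to 3′. Capitals mark the GC box GGGCGG, on either strand, and the TATA motif TATAAA.
Cftr chr6:18170437-18170736: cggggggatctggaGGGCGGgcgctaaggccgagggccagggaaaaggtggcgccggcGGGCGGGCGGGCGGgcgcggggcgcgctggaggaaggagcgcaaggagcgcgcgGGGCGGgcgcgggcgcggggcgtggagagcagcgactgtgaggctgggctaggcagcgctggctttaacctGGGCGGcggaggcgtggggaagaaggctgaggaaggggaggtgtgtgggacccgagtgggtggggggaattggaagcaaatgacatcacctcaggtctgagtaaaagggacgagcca
Krt7 chr15:101412153-101412452: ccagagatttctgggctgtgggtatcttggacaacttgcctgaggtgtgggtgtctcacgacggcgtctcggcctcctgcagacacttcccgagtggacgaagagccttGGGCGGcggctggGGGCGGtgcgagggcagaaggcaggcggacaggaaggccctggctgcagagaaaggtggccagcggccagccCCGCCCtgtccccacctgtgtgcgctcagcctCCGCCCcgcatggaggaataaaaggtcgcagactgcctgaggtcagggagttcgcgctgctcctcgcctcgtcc
Epcam chr17:87635729-87636028: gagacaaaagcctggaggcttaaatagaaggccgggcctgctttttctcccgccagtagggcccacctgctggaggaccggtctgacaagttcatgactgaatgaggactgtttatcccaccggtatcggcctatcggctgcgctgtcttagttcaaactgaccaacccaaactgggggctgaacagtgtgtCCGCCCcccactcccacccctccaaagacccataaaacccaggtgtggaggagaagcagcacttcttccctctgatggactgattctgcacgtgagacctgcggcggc
Spp1 chr5:104434861-104435160: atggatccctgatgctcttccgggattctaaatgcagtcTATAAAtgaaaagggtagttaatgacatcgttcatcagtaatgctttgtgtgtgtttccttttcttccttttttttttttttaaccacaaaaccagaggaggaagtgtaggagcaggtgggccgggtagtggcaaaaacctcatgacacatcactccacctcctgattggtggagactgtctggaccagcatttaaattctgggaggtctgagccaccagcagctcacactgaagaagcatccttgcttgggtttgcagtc

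The Cftr window held 31 CG dinucleotides and 6 GC boxes, some of them overlapping. The Krt7 window held 21 CG dinucleotides and 4 GC boxes, and the Epcam window held 11 and 1. The Spp1 window held 3 CG dinucleotides, no GC box and 1 TATAAA, 211 bases before the start. Over all 32851 windows of the same length the median was 7 CG dinucleotides, 35.7% held GGGCGG on either strand and 13.6% held TATAAA. The CG count placed Cftr at percentile 89.4 of these windows, Krt7 at 75.2, Epcam at 58.6 and Spp1 at 23.3. A second RefSeq start of Spp1 also had 3 CG dinucleotides. A match to these letters is a description and not a binding site.

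Promoter totals ran from 1.68e+06 counts in control 4 to 1.53e+07 counts in atorvastatin 2, and enhancer totals from 1.26e+06 to 1.31e+07. Control 3 and atorvastatin 3 stood apart, with median correlations to the other libraries of 0.766 and 0.790 over promoters, against 0.920 to 0.969 in the rest. The promoters of 1125 olfactory receptor genes, which liver cells are not known to use, served as a level for closed chromatin. This set was chosen after the data were seen. Their median level was highest in atorvastatin 3, at 6.89 CPM (counts-per-million, scaled to the promoter total of the library), and ranged from 1.04 to 4.72 CPM in the other 11 libraries. In control 3, 33.96% of olfactory receptor promoters had no counts, and in control 4 18.58%, against at most 2.0% elsewhere. Control 3 had a mean of 9.84 counts at these promoters, for which Poisson counting would leave 0.00531% at 0, and control 4 a mean of 3.30 counts, for which it would leave 3.69%. Fold changes of the markers and list medians are also given without control 3 and atorvastatin 3, whereas group means, ratios and levels include all 12 libraries. The 19 listed hepatocyte promoters had a median of 38.2 CPM, against 12.9 CPM over all symbols, a level that the liver label fits. All 19 had mean levels above the 95th percentile of olfactory receptor promoters. So did all 12 listed endothelial promoters and 18 of 28 keratin promoters of other epithelia, so that bar does not set hepatocyte genes apart.

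Sox9 had the most open promoter of the markers, and Cftr the least open. The mean over the 12 libraries was 25.5 CPM at Sox9, 9.44 at Epcam, 8.35 at Krt7, 7.39 at Spp1, 6.39 at Krt19 and 3.74 at Cftr. Among all symbols these levels stood at percentiles 66.8, 42.7, 39.1, 35.2, 30 and 13.9, in the same order. Sox9 exceeded the 95th percentile of olfactory receptor promoters of the same library in 12 of 12 libraries and Epcam did so in 11. Spp1 did so in 9, Krt7 in 8, Krt19 in 7 and Cftr in 1. The mean of Cftr lay at percentile 70.7 of the olfactory receptor promoters, within their range, although its window is rich in CG dinucleotides. The length of the deposited promoter windows is not given in the sources used here, so levels of different genes are not per length. Epcam, Krt7, Spp1 and Krt19 lie close together in this order, and their ranges over libraries overlap.

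Krt19 (NM_008471, chr11:100140810-100145926) had 9.56, 3.9, 3.19 and 5.82 CPM in PCN livers. It had 8.30, 4.04, 21.2 and 3.59 CPM in atorvastatin livers, and 9.91, 5.43, 0 and 1.79 CPM in control livers. The groups overlapped, with atorvastatin 3 far above every other library and control 3 without a count. A count of 0 in control 3 has a 95% Poisson interval of up to 1.56 CPM. The 1.79 CPM of control 4 came from 3 counts, with an interval of 0.368 to 5.22 CPM. Counting error is the only error these intervals cover. In control 3, where 33.96% of olfactory receptor promoters also had no counts, they are too narrow. The second Krt19 promoter row was also at 0 in control 3, but it had 8 counts (4.76 CPM) in control 4. With both rows summed, the edgeR log2 fold change of Krt19 was 0.13 for PCN against control and 0.87 for atorvastatin against control. It was -0.73 for PCN against atorvastatin. The row used gave 0.39, 0.99 and -0.60 in this order.

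Krt7 (NM_033073, chr15:101412403-101427806) had 8.95, 7.80, 3.49 and 5.15 CPM in PCN livers. It had 11.9, 4.27, 24.5 and 2.65 CPM in atorvastatin livers, against 12.2, 6.71, 8.45 and 4.17 CPM in control livers. Atorvastatin 3 was again the highest library, while atorvastatin 4 was the lowest, so the atorvastatin group spanned the range of the other groups. Krt7 and Krt19 lie in different keratin clusters, on chromosomes 15 and 11, and both peaked in the library in which olfactory receptor promoters also had their highest median. The part of that background in either value was not tested.

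Epcam (NM_008532, chr17:87635979-87651127) had 10.4, 6.46, 4.04 and 6.87 CPM in PCN livers. It had 15.3, 5.97, 15.8 and 5.67 CPM in atorvastatin livers, against 10.6, 6.07, 16.5 and 9.53 CPM in control livers. The highest values were those of control 3, atorvastatin 3 and atorvastatin 1, and the groups overlapped.

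Cftr (NM_021050, chr6:18170687-18322770) had 5.63, 2.36, 2.69 and 1.34 CPM in PCN livers. It had 6.40, 2.58, 6.26 and 3.33 CPM in atorvastatin livers, against 6.86, 5.91, 0 and 1.49 CPM in control livers. Like Krt19, it had no count in control 3, and control 4 had 2.5 counts. In 8 of 12 libraries it lay above the olfactory receptor median of its own library, and in the other 4 at or below it.

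Spp1 (NM_001204202, chr5:104435111-104441053) had 6.78, 6.46, 3.84 and 6.97 CPM in PCN livers. It had 8.06, 5.05, 9.77 and 5.10 CPM in atorvastatin livers, against 8.72, 4.63, 18.6 and 4.76 CPM in control livers. Control 3 was the highest, from 44 counts, and the other 11 libraries lay between 3.84 and 9.77 CPM. The gene has 5 promoter rows, of which 3 carry the same counts. The row used here differs from those 3 by 1 count in PCN 1, so it and those 3 are not separate measurements. The remaining row has other counts, with 12.7 CPM in control 3 and 6.70 CPM in atorvastatin 3, against 18.6 and 9.77 in the row used. Control 3 was the highest library there too.

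Sox9 (NM_011448, chr11:112782210-112787757) had 25.1, 27.2, 21.9 and 27.9 CPM in PCN livers. It had 24.7, 21.5, 34.3 and 20.9 CPM in atorvastatin livers, against 20.9, 22.5, 32.9 and 25.9 CPM in control livers. Atorvastatin 3 and control 3 were the highest libraries, and the other 10 lay between 20.9 and 27.9 CPM. Relative to its mean, Sox9 varied least of the markers, and it was the only one whose lowest library stayed above 20 CPM.

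**Figure D1:**
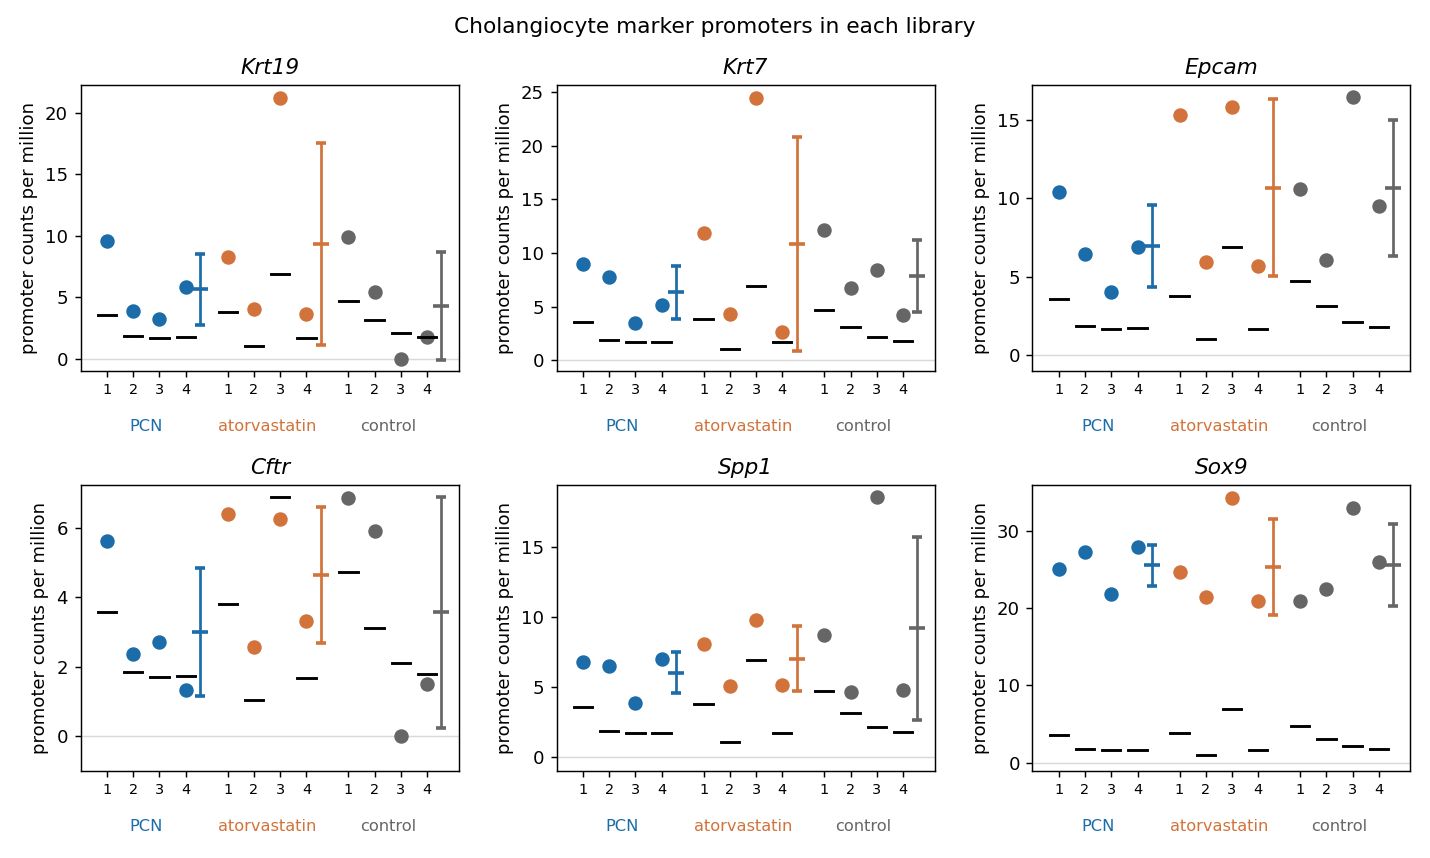
Promoter level of each marker (vertical axis, CPM) in each of the 12 libraries, PCN in blue, atorvastatin in orange and control in grey. Circles are libraries, coloured bars the group mean ± SD (n = 4), and black dashes the median olfactory receptor promoter of the same library. Krt19 and Krt7 peak in atorvastatin 3 at 21.2 and 24.5 CPM, Krt19 and Cftr are at 0 in control 3, and Sox9 stays above 20 CPM throughout.

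Group means reflect these single libraries. Krt19 averaged 5.62 ± 2.85 CPM in PCN, 9.28 ± 8.22 in atorvastatin and 4.28 ± 4.38 in control livers (SD, n = 4 each, as for the following means). Krt7 averaged 6.35 ± 2.48 CPM in PCN, 10.8 ± 9.97 in atorvastatin and 7.87 ± 3.35 in control livers. For both keratins the SD of the atorvastatin group was almost as large as its mean. Epcam averaged 6.95 ± 2.62 CPM in PCN, 10.7 ± 5.63 in atorvastatin and 10.7 ± 4.32 in control livers. Cftr averaged 3.00 ± 1.84 CPM in PCN, 4.64 ± 1.97 in atorvastatin and 3.56 ± 3.34 in control livers. Spp1 averaged 6.01 ± 1.46 CPM in PCN, 7.00 ± 2.32 in atorvastatin and 9.17 ± 6.55 in control livers. The 3 Sox9 means were nearly equal, at 25.5 ± 2.7 CPM in PCN, 25.3 ± 6.20 in atorvastatin and 25.6 ± 5.35 in control livers.

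PCN livers were first compared with vehicle controls. None of the 6 markers passed edgeR's quasi-likelihood test at an adjusted p of 0.05, against 0.0% of all 41908 promoters tested (0 called). No marker reached an unadjusted p of 0.05 either, against 3.75% of promoters (1572). DESeq2 and limma-voom also called 0 of the 6 markers in each of the 3 comparisons, and over all promoters DESeq2 called 1, for atorvastatin against control. By edgeR, the Krt19 promoter had a log2 fold change of 0.39 ± 0.71 (SE), Krt7 of -0.23 ± 0.56, Epcam of -0.51 ± 0.46, Cftr of -0.20 ± 0.75, Spp1 of -0.49 ± 0.51 and Sox9 of 0.12 ± 0.21, with adjusted p between 0.918 and 0.973. The groups overlapped for all 6, while 3.6% of all promoters did not overlap. The median over the 6 was -0.22, with 2 above 0, beside a median of 0.01 and 51.0% above 0 over all promoters. Exact two-sided permutation tests of the difference in mean log2 CPM gave p between 0.257 and 0.714, where 0.0286 is the smallest that 4 against 4 can give. That difference weighs each library equally and is not edgeR's value. It was 1.27 for Krt19 and 0.62 for Cftr, the second with the other sign than edgeR's -0.20, and both include a control library at 0.

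Sox9 had the tightest interval, with a 95% range of the PCN log2 difference of -0.30 to 0.55. Cftr had the widest, from -1.67 to 1.26, which includes a change of more than 1 on the log2 scale in both directions. With control 3 and atorvastatin 3 left out, the value for Sox9 was 0.29 (-0.07 to 0.64), for Cftr -0.60 and for Epcam -0.22. Krt19 was then -0.02 and Spp1 0.06, both with the other sign, and no marker passed.

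Atorvastatin livers gave the same count against vehicle, 0 of 6 markers past the threshold beside 0.0% of promoters (0 of 41908). At an unadjusted p of 0.05 the count was again 0 of 6, beside 1.93% of promoters (807). By edgeR, Krt19 had a log2 fold change of 0.99 ± 0.71 (SE), the largest of the 6, Krt7 of 0.40 ± 0.55, Epcam of 0.00 ± 0.45, Cftr of 0.32 ± 0.75, Spp1 of -0.35 ± 0.51 and Sox9 of 0.03 ± 0.21, each with an adjusted p of 1.00. The groups overlapped for all 6, beside 0.976% of promoters without overlap. The median over the 6 was 0.18 with 5 above 0, beside 0.05 and 57.3% over all promoters. Exact permutation p for the difference in mean log2 CPM ran from 0.257 to 0.943, with differences of 1.67 for Krt19, 1.20 for Cftr and -0.03 for Epcam.

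The Krt19 and Krt7 values rested on the libraries that stand apart. Without control 3 and atorvastatin 3, Krt19 was -0.15 (95% interval -1.14 to 0.83) and Krt7 was -0.36 (-1.28 to 0.55), both below 0. Cftr was -0.24 and Spp1 0.06, also with the other sign, while Epcam at 0.07 and Sox9 at 0.09 kept theirs. Without atorvastatin 3 alone Krt7 was -0.34, whereas Krt19 stayed above 0 in each fit that left out 1 library, from 0.25 to 1.71.

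PCN and atorvastatin livers were also compared with each other, and 0 of 6 markers passed beside 0.0% of promoters (0 of 41908). None had an unadjusted p under 0.05, beside 0.73% of promoters (306), and all 6 overlapped, beside 0.503% that did not. By edgeR, Krt19 was at -0.60 ± 0.70 (log2, SE), Krt7 at -0.63 ± 0.55, Epcam at -0.51 ± 0.45, Cftr at -0.52 ± 0.74, Spp1 at -0.14 ± 0.50 and Sox9 at 0.09 ± 0.21, with adjusted p of 1.00. The median was -0.52 with 1 of 6 above 0, beside -0.02 and 47.9% over all promoters. Exact permutation p for the difference in mean log2 CPM ran from 0.171 to 0.714. Without control 3 and atorvastatin 3, Krt19 was 0.13, Krt7 0.12 and Spp1 0.00, each with the other sign, while Epcam was -0.29, Cftr -0.36 and Sox9 0.20. The comparisons share libraries pairwise and are not independent.

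**Figure D2:**
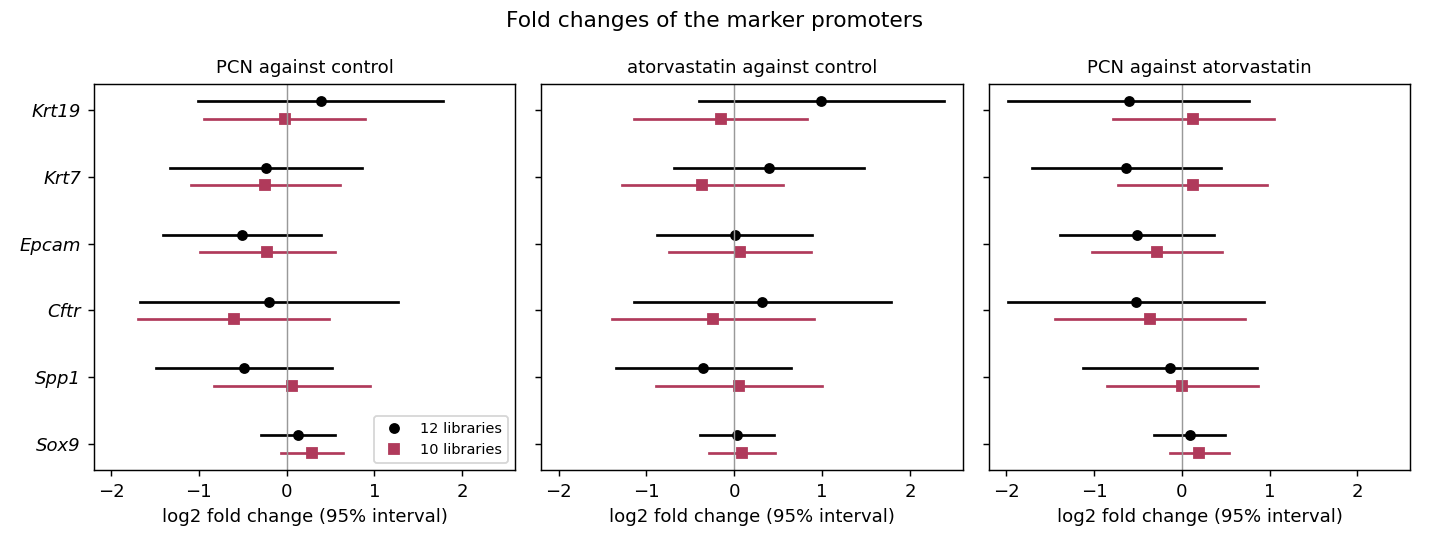
Log2 fold change of each marker promoter (horizontal axis, with 95% interval) in 3 comparisons, from edgeR over all promoters, with all 12 libraries as black circles and without control 3 and atorvastatin 3 as red squares. Every interval includes 0, Sox9 has the narrowest intervals, and the Krt19 value for atorvastatin against control is 0.99 with 12 libraries and -0.15 with 10.

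Expressed as a ratio to the olfactory receptor median of the same library, the markers kept the same order as in CPM. The median ratio over 12 libraries was 12.7 at Sox9 (4.42 to 20.6), 3.46 at Epcam (1.95 to 7.8), 2.79 at Krt7 (1.59 to 4.22), 2.47 at Spp1 (1.42 to 8.8), 2.14 at Krt19 (0 to 3.88) and 1.52 at Cftr (0 to 2.47). The Krt7 ratio averaged 2.95 ± 0.93 in PCN, 3.09 ± 1.08 in atorvastatin and 2.77 ± 0.84 in control livers (SD, n = 4 each). On this scale the 3 Krt7 groups lay closer together than in CPM, and Krt7 also went with this median over libraries, as described below. The 3 Sox9 groups lay further apart than in CPM, at 12.72 ± 4.03, 11.15 ± 7.08 and 10.44 ± 5.47 in the same order. Epcam averaged 3.20, 3.86 and 4.33, Spp1 2.93, 2.86 and 3.70, and Cftr 1.305, 1.766 and 1.046, the last with control 3 at 0. The Krt19 ratio averaged 2.52 ± 0.67 in PCN, 2.82 ± 0.82 in atorvastatin and 1.21 ± 0.93 in control livers, the control mean including the library at 0.

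The markers did not all vary together over the libraries. Of 15 pairs over 12 libraries, 2 had a Benjamini-Hochberg adjusted permutation p under 0.05 by Pearson correlation of log2 CPM. Krt19 and Cftr had r = 0.91 and Spearman rho = 0.72 (adjusted permutation p 0.00825 and 0.0314), and r = 0.71 without control 3 and atorvastatin 3, the libraries farthest from the median. Epcam and Spp1 had r = 0.77 and rho = 0.78 (adjusted permutation p 0.0116 for r), and r = 0.63 without control 3 and PCN 3. By rank correlation, Krt19 with Krt7 and Krt7 with Spp1 had rho = 0.73, and Sox9 with Cftr had rho = -0.73 (adjusted permutation p 0.0314 each). With 10 libraries, without control 3 and atorvastatin 3, only Sox9 with Cftr passed by Pearson correlation, at r = -0.85 (adjusted permutation p 0.0165). Sox9 had r below 0 with every other marker there, and all pairs without Sox9 had r above 0, from 0.15 to 0.72. Krt19 with Krt7, Cftr and Spp1, Krt7 with Epcam and Spp1, and Epcam with Spp1 had r from 0.64 to 0.72. None of these passed (adjusted permutation p 0.095 each).

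Krt7 was the only marker whose level went with the olfactory receptor median of the library after adjustment over the 6 relations. Its correlation over 12 libraries was r = 0.83 and rho = 0.84 (adjusted permutation p 0.0063 and 0.0071), and r = 0.63 without atorvastatin 3 and control 1. The other 5 markers did not pass by r, with adjusted permutation p from 0.15 to 0.60, or by rho. Krt19, Epcam and Cftr had r from 0.50 to 0.54. By rho, Cftr at 0.66 and Krt19 at 0.62 had an adjusted permutation p of 0.074 each, so the direction was not particular to Krt7. These points share depth and library quality, and the relation was not tested within groups because each holds 4 libraries.

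The promoters most like each marker over the 12 libraries were found among 24601 other symbols by Pearson correlation of log2 CPM, given without p. For Krt19 they were Kcnk2, Mir7063 and Vmn2r-ps54 (r = 0.99 each), and for Krt7 Tex44 and Nog (0.97) and Sncb (0.96). For Epcam they were Phlda3 (0.96), Gm3233 and Apcdd1 (0.95), and for Cftr Pcnx2, A730098A19Rik and AV205837 (0.98 each). For Spp1 they were Btnl9 (0.96), Sv2b (0.95) and Rps6ka4 (0.94), and for Sox9 Enpp1 and Wnk4 (0.88) and Gm10390 (0.87). No marker was among the nearest 3 of another. The number of symbols with r above 0.8 was 2732 for Krt19, 2452 for Cftr, 1390 for Krt7, 667 for Epcam, 589 for Spp1 and 11 for Sox9, so a high r was common for all but Sox9.

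A wider list of 34 other genes of bile duct cells was more open as a whole, with a median of 12.0 CPM against 7.87 CPM for the 6 markers and 12.9 CPM for all symbols. Of its 34 promoters, 30 lay above the 95th percentile of olfactory receptor promoters, as did 5 of the 6 markers. The highest were Hes1 at 100 CPM, a Notch target, Slc4a2 at 76.5, an anion exchanger of the bicarbonate secretion pathway, and Jag1 at 58.2, a Notch ligand. Krt8 at 52.0 CPM and Krt18 at 35.9 CPM are keratins that hepatocytes also make, and the Notch receptor gene Notch2 had 36.7 CPM. The transcription factor genes Onecut1 and Elf3 had 36.4 and 31.1 CPM. The lowest were the metalloproteinase gene Mmp7 at 2.93 CPM, Anxa13 at 4.1 CPM and Ehf at 4.91 CPM. The list includes genes active in hepatocytes and is therefore not specific to ducts.

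In PCN against control livers, 0 of the 34 passed, 16 were above 0 and the median log2 difference was -0.04. The smallest unadjusted p belonged to Krt18 at 0.60 ± 0.24 (log2, SE), the protease gene St14 at -0.92 ± 0.42 and Krt8 at 0.56 ± 0.27, each with an edgeR adjusted p of 0.918. In atorvastatin against control livers, 0 of 34 passed, 15 were above 0 and the median was -0.01, with Ggt1 at -0.95 ± 0.54, Krt8 at 0.43 ± 0.27 and Krt18 at 0.33 ± 0.24 having the smallest p. In PCN against atorvastatin livers, 0 of 34 passed, 18 were above 0 and the median was 0.02, and Bicc1 at -0.81 ± 0.55 and Sctr, the secretin receptor, at -0.88 ± 0.64 were among the 3 of smallest p. The summed level of the list ranged from 689 to 754 CPM in PCN, 718 to 739 CPM in atorvastatin and 664 to 759 CPM in control livers, and so moved little between libraries. The summed level of the 6 markers ranged from 39.1 to 66.4 CPM in PCN, 41.2 to 112 CPM in atorvastatin and 47.6 to 76.4 CPM in control livers, with atorvastatin 3 highest.

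Keratin genes of other epithelia, such as skin and hair, were listed because they share a family and gene clusters with Krt19 and Krt7 but are not known to be active in liver. Their 28 promoters had a median of 6.53 CPM, and 18 lay above the 95th percentile of olfactory receptor promoters. Their summed level was 92.0 to 191 CPM in PCN, 96.6 to 516 CPM in atorvastatin and 96.5 to 323 CPM in control livers. The 2 highest libraries were atorvastatin 3 and control 3, and atorvastatin 3 was also the highest for Krt19 and Krt7. In PCN against control livers, 0 of 28 passed, 6 were above 0 and the median log2 difference was -0.67. In atorvastatin against control livers, 0 passed, 20 were above 0 and the median was 0.30. In PCN against atorvastatin livers, 0 passed, 2 were above 0 and the median was -0.77. Without control 3 and atorvastatin 3 the medians were -0.16, -0.21 and 0.01, in this order. The part of the shared background in the Krt19 and Krt7 values was not tested.

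Single keratin genes did not pass either. The smallest unadjusted p in PCN against control livers was that of Krt78 at -1.49 ± 0.61 (log2, SE), then Krt71 at -0.87 ± 0.52 and Krt14 at -1.0 ± 0.63, with an edgeR adjusted p of 0.918 each. In PCN against atorvastatin livers they were Krt84 at -1.49 ± 0.66, Krt77 at -1.74 ± 0.77 and Krt9 at -1.27 ± 0.65, and in atorvastatin against control livers Krt15 at 1.06 ± 0.70, Krt78 at -0.77 ± 0.60 and Krt77 at 0.97 ± 0.76, all with adjusted p of 1.00.

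Markers of the other liver cell types gave no call either. Median levels were 12.2 CPM for endothelial, 9.02 for stellate and fibroblast, 7.22 for Kupffer and macrophage and 6.36 CPM for lymphocyte genes. The 6 duct markers at 7.87 CPM lay within this range, and so did the keratin genes of other epithelia at 6.53 CPM. In PCN against control livers the median log2 difference was 0.33 for hepatocyte genes (15 of 19 above 0), -0.20 for stellate and fibroblast (4 of 16), -0.28 for Kupffer and macrophage (4 of 16), -0.19 for endothelial (4 of 12) and -0.24 for lymphocyte genes (3 of 11). Olfactory receptor promoters had a median of -0.43 with 238 of 1120 above 0 in the same comparison. The 6 duct markers had -0.22. These signs depend on the scaling. In atorvastatin against control livers the medians were 0.32 for hepatocyte, 0.18 for stellate and fibroblast, -0.21 for Kupffer and macrophage, 0.06 for endothelial, -0.08 for lymphocyte and -0.00 for olfactory receptor promoters. In PCN against atorvastatin livers they were 0.02, -0.38, -0.18, -0.33, -0.35 and -0.46 in that order of lists.

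Scaling by olfactory receptor totals, added after the data were seen, moved the median of all promoters to 0.45 for PCN against control, 0.42 for atorvastatin against control and 0.03 for PCN against atorvastatin. In PCN against control livers the duct markers then had a median of 0.24 with 5 of 6 above 0, below the median of all promoters. Stellate and fibroblast genes had 0.28, Kupffer and macrophage genes 0.19, endothelial genes 0.32 and lymphocyte genes 0.11, each also below it, and hepatocyte genes 0.70. In atorvastatin against control livers the duct markers had 0.32 with 6 of 6 above 0, again below the median of all promoters. Krt19 had an unadjusted p of 0.0315 there, at an edgeR adjusted p of 0.862. The wider duct list had 0.29 for PCN against control and 0.27 for atorvastatin against control, with 28 of 34 above 0 in both.

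Several list medians also rested on the libraries that stand apart. Without control 3 and atorvastatin 3, olfactory receptor promoters had -0.44 for PCN against control, -0.61 for atorvastatin against control and 0.17 for PCN against atorvastatin. Without atorvastatin 3 alone they had -0.58 for atorvastatin against control (137 of 1118 above 0) and 0.14 for PCN against atorvastatin (722 of 1118). With limma-voom they had -0.44 and 0.03 in these comparisons. The duct markers without both libraries had -0.12 for PCN against control, -0.05 for atorvastatin against control and 0.06 for PCN against atorvastatin, and the wider duct list had -0.04, -0.12 and -0.01 in this order. Hepatocyte genes had 0.17, 0.22 and -0.01, stellate and fibroblast genes -0.33, -0.20 and -0.18, and endothelial genes -0.21, -0.04 and -0.10. Kupffer and macrophage genes had -0.10, -0.34 and 0.20, and lymphocyte genes -0.41, -0.63 and 0.22. For PCN against atorvastatin, limma-voom also put Kupffer and macrophage genes at 0.04 and lymphocyte genes at 0.09, above 0.

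Over all promoters, 3.75% had an edgeR unadjusted p under 0.05 for PCN against control and 1.93% for atorvastatin against control. The hepatocyte, stellate and fibroblast, Kupffer and macrophage, endothelial and lymphocyte lists held 19, 16, 16, 12 and 11 promoters. The genes of these lists under that p are named without reading their number as a result. They were Ahsg, the fetuin gene of hepatocytes, at 0.71 ± 0.34 (log2, SE), Des, the desmin gene of stellate cells, at -1.10 ± 0.48 and the T cell kinase gene Lck at -0.64 ± 0.28 in PCN against control livers, with an edgeR adjusted p of 0.918 each. Lck was at -0.74 ± 0.28 in atorvastatin against control livers, with an edgeR adjusted p of 1.00.

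**Figure D3:**
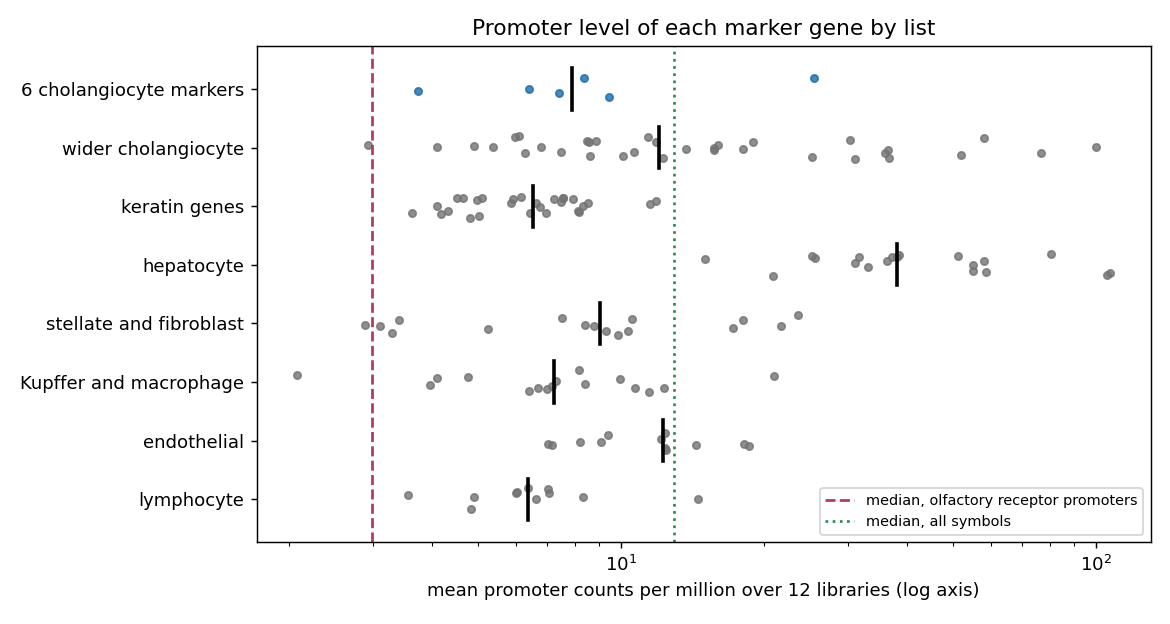
Mean promoter level over 12 libraries (horizontal log axis, CPM) of every gene in 8 marker lists. Points are genes and black bars list medians, with the medians of olfactory receptor promoters (dashed, 2.99 CPM) and of all symbols (dotted, 12.9 CPM) as lines. The 6 cholangiocyte markers have a median of 7.87 CPM, below the hepatocyte genes at 38.2 CPM.

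Enhancer regions near the 6 genes gave a readout that the choice of promoter rows did not use. Within 50 kb of the gene bodies lay 113 deposited regions, 36 near Sox9, 29 near Spp1, 16 near Krt7, 14 near Epcam, 10 near Krt19 and 8 near Cftr. Only 17 had enough counts to be tested, 10 near Spp1 and 7 near Sox9, and none passed, beside 0.0% of the 182115 enhancers tested (0 called) in each comparison. The deposited regions come in overlapping classes of width, and each of 12 classes peaks in its own library, so neighbouring regions repeat one another. Coordinates are as deposited on mm10, and their counting from 0 or 1 is not given in the sources used here.

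The most open region near Spp1 lay 5297 bp past the end of the gene, towards Pkd2, at chr5:104446350-104446484, with a mean of 3.34 CPM (relative to the enhancer counts of the library). It had 3.87, 5.17, 3.96 and 5.29 CPM in PCN livers, 4.49, 3.10, 1.36 and 2.47 CPM in atorvastatin livers, and 5.62, 4.34, 0 and 0.398 CPM in control livers. The PCN libraries lay close together, and the control group held both the highest and the lowest values, with its 2 shallowest libraries at the bottom. The region is of the width class that peaks in control 1, the highest library here. By edgeR, the log2 difference was 0.54 ± 0.75 (SE) for PCN against control, -0.02 ± 0.72 for atorvastatin against control and 0.57 ± 0.73 for PCN against atorvastatin, each with an adjusted p of 1.00. This region belongs to a cluster of 9 overlapping regions, which repeat one another and are not separate measurements. Of these, 9 were above 0 for PCN against control and 1 for atorvastatin against control. Over all 182115 enhancers tested, 112935 and 106423 were above 0 in these comparisons. The Spp1 promoter itself had -0.49 and -0.35 in these comparisons.

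The most open region near Sox9 lay 49905 bp before its start coordinate, at chr11:112732123-112732305, with a mean of 3.17 CPM. It had 3.11, 2.00, 2.24 and 1.00 CPM in PCN livers, 1.68, 2.37, 5.38 and 1.69 CPM in atorvastatin livers, and 3.17, 1.53, 7.84 and 5.97 CPM in control livers. Control 3, control 4 and atorvastatin 3 were the highest, and the region is of the width class that peaks in atorvastatin 3. By edgeR, the log2 difference was -0.91 ± 0.70 (SE) for PCN against control, -0.15 ± 0.69 for atorvastatin against control and -0.76 ± 0.68 for PCN against atorvastatin, each with an adjusted p of 1.00. The cluster of overlapping regions here had 5 tested, of which 0 were above 0 for PCN against control and 0 for atorvastatin against control. The region is at the edge of the distance allowed, and within 20 kb no region near Sox9 was tested. The most open regions near Krt7 and Krt19 had means of 3.15 and 3.06 CPM, near Epcam 1.61 CPM and near Cftr 0.883 CPM, and none of them passed the filter on low counts. Those near Krt7 and Krt19 are of the width class that peaks in control 3. They lay 25351 bp from Krt7, within Krt88, and 27700 bp from Krt19, at 3431 bp from Krt36.

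**Figure D4:**
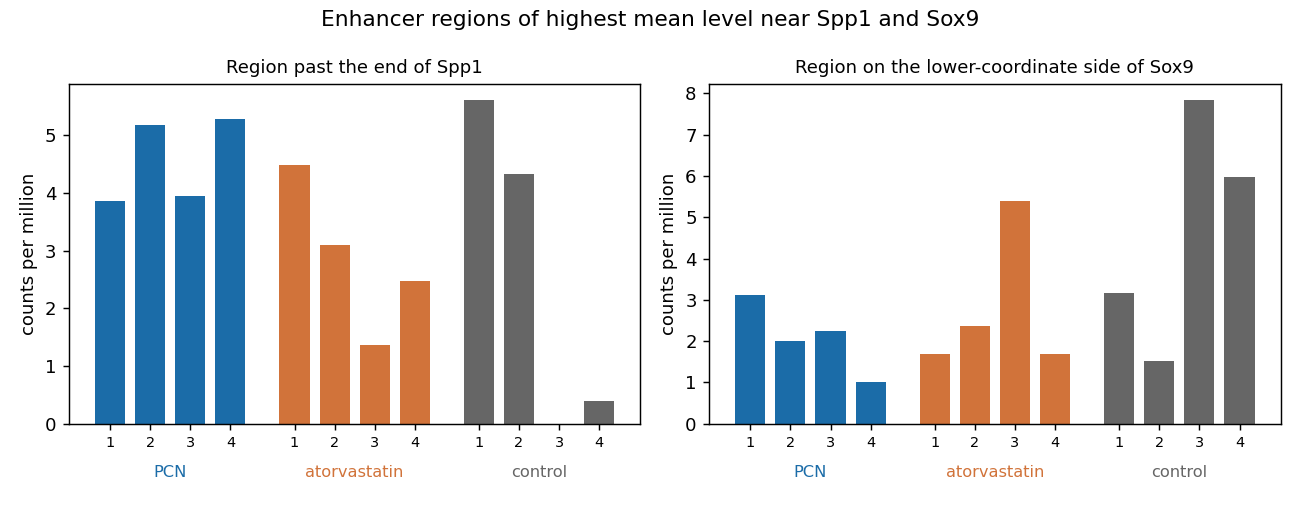
Level of the most open enhancer region near Spp1 (left) and near Sox9 (right) in each library (vertical axis, CPM), PCN in blue, atorvastatin in orange and control in grey. Near Spp1 the 4 PCN libraries lie between 3.87 and 5.29 CPM and control 3 is at 0, and near Sox9 control 3 is highest at 7.84 CPM.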

How the data were processed

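Liver ATAC-seq libraries of 3 groups (PCN, atorvastatin, control), 4 each by the sample titles, were analysed. The authors deposited expected counts for promoters and enhancers, unnormalised and in steps of 0.5, as read from the values. The submitters' processing notes name, with no role, the build mm10, HOMER 4.10, bedtools 2.30.0, STAR 2.7.9a and Trimmomatic. The counting tool, region rules and filters are not given in the sources used here. Depth, as total counts, differed between libraries.

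Counts were rounded to whole numbers and fitted in R 4.3.3 with edgeR 4.0.16 (TMM, filterByExpr with minimum count 10 and total 15, quasi-likelihood test, group only, all 12 libraries), promoters and enhancers separately. Benjamini-Hochberg adjustment covered all rows, with threshold 0.05. Approximate SEs were derived by dividing the size of each log2 change by √F. A prior count of 2 was added for log2 CPM. The 97 promoter rows without a symbol carry a RefSeq transcript and stayed in the table.

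Members and lists were chosen with earlier results of these data known. All 6 members were named, and up to 3 genes of smallest p per list and comparison, the 3 most alike promoters per member, and the most open enhancer per gene. Some genes that this rule names are not reported here. Alternatives were other size factors, library totals, filters, DESeq2 1.42.0, limma-voom (limma 3.58.1), 2-group fits, the replicate block, leaving out libraries and a distance of 20 kb. Olfactory receptor totals as library size were added after seeing the data. The fit was tested on simulated data. The labels do not say whether replicate numbers pair samples. With group means removed, 6 of 12 same-number pairs correlated above 0.1, with r from -0.42 to 0.50. These 6 were all the pairs of replicate 1 (0.36 to 0.50) and of replicate 4 (0.23 to 0.43). What these libraries share was not tested.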

Additional observations from a re-analysis of the deposited data

Results flagged for a closer look

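Of 24 groups of 4 libraries examined, 1 had a library far from the others, where chance gives about 1 in 20. The Spp1 promoter in PCN 3 had 3.84 CPM, below the other PCN libraries at 6.78, 6.46 and 6.97 CPM. Its gap was 0.84 of the range of the group, past the critical value of Dixon's test for 4 samples. The test used CPM before TMM scaling, in the row used only. In the Spp1 row with other counts, PCN 3 had 4.89 CPM beside 7.08, 6.77 and 8.59 CPM. PCN 3 was also the lowest PCN library at Krt19, Krt7, Epcam and Sox9, so its low level was not particular to Spp1.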

How the results depend on the processing

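No member passed under any alternative (lowest adjusted p 0.654). Of 402 alternatives of member fold changes, 362 kept their sign and 40 did not. These alternatives share libraries and counts, are not independent, and their number is not a measure of robustness. Some leave out only a library of the group not compared, which hardly moves the value. Without any 1 PCN library, Krt19 was 1.00 for atorvastatin against control, against 0.99 with all libraries. In the rows used, Krt19 and Cftr had at most 3 counts in controls 3 and 4. Where values moved, the cause was not tested.

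Without control 3 and atorvastatin 3, 6 promoters passed for PCN against control and 4 for atorvastatin against control. By Pearson correlation 1 member pair passed there, Sox9 with Cftr (r = -0.85), against 2 other pairs with all libraries. Those 2 pairs then had r of 0.71 (Krt19 with Cftr) and 0.65 (Epcam with Spp1). DESeq2 called 1 promoter for atorvastatin against control. In the fit without those libraries, log2 differences with the other sign were -0.022 (Krt19) and 0.061 (Spp1) for PCN against control, -0.15 (Krt19), -0.36 (Krt7), 0.057 (Spp1) and -0.24 (Cftr) for atorvastatin against control, and 0.13 (Krt19), 0.12 (Krt7), 0.0039 (Spp1) and 0.16 (Sox9 enhancer) for PCN against atorvastatin. With olfactory receptor totals as library size, PCN against control gave 0.28 (Krt7), 0.086 (Spp1) and 0.20 (Cftr), and Spp1 was 0.043 for both atorvastatin against control and PCN against atorvastatin. With limma-voom, Cftr was 0.031 for PCN against control, Krt7 -0.54 and Epcam -0.098 for atorvastatin against control, and Krt7 0.0055 for PCN against atorvastatin. Epcam with library totals was -0.0025 for atorvastatin against control. The Spp1 enhancer for atorvastatin against control was 0.044 in the 2-group fit, 0.62 with limma-voom and 0.068 without a filter. Enhancer regions tested fell to 9 at 20 kb, against 17 at 50 kb.

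With the replicate number as a block, 0 promoters, 0 enhancers and 0 members passed. The block turned Epcam to -0.016 and the Spp1 enhancer to 0.37 for atorvastatin against control.

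Leaving out 1 library at a time, Krt19 ran from 0.0067 to 1.11 for PCN against control, 0.25 to 1.71 for atorvastatin against control and -0.92 to 0.12 for PCN against atorvastatin. In the same order of comparisons, Krt7 ran from -0.39 to 0.028, -0.34 to 0.71 and -0.94 to 0.10. Epcam ran from -0.71 to -0.24, -0.20 to 0.27 and -0.71 to -0.30. Sox9 ran from -0.0014 to 0.27, -0.099 to 0.18 and 0.024 to 0.20. Spp1 ran from -0.70 to 0.073, -0.57 to 0.21 and -0.23 to 0.010. Cftr ran from -0.59 to 0.25, -0.061 to 0.77 and -0.92 to -0.30. The Sox9 enhancer ran from -1.14 to -0.60, -1.01 to 0.12 and -1.0 to 0.16, and the Spp1 enhancer from 0.19 to 1.32, -0.42 to 0.75 and 0.47 to 0.82.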
